A study of Mus musculus with 11 samples.

Results

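The double knockdown of Khsrp and Fubp1 in mouse Neuro-2A (N2A) cells was compared with the non-targeting control. Members were chosen by their labels: 2 libraries of cells that received siRNA pools against both genes (A and B), set against 3 libraries of cells that received non-targeting pools (siNT A, B and C), 5 of the 11 libraries of the series. N2A is an established line derived from a mouse neuroblastoma, a tumour of the sympathetic nervous system, and its cells can be driven to grow neurites. All groups came from the same line with no genetic change, were transfected with Lipofectamine RNAiMAX and were collected 48 h later. Single knockdowns of Fubp1 (2 libraries) and of Khsrp (2 libraries), with pools from the same supplier, served as a further reference. The remaining 2 libraries, a knockdown of the RNA-binding protein gene Rbm38, entered the filter on reads and the fit, and are not described. Nothing in the labels says that the libraries of a group came from separate cultures, so p-values measure only the spread between these libraries, which may be technical.

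Fubp1 and Khsrp (also called Fubp2) encode members of the far upstream element binding protein family, with Fubp3 as the remaining member. Each carries several KH domains in tandem, which bind single-stranded nucleic acid rich in U or T. FUBP1 was first described as an activator of the MYC promoter, and KHSRP as a splicing factor of the neuronal c-src N1 exon, a decay factor of AU-rich mRNAs and a helper of microRNA processing. Microexons, exons of up to 27 nt here, are included mainly in neurons and are often a multiple of 3 nt long, so that they add a few residues to a protein without shifting its reading frame.

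Both targeted mRNAs were lower in the double knockdown and in their own single knockdown. The authors' deposited table gives 1 RPKM value (reads scaled to transcript length and library depth) per group, so a gene's level comes without a spread between libraries. Fubp1 stood at 180.07 RPKM in siNT and 19.82 RPKM in the double knockdown (log2 fold change -3.04, FDR 5.12e-60), against 27.89 RPKM in the Fubp1 knockdown and 189.89 RPKM in the Khsrp knockdown. Khsrp stood at 47.03 RPKM in siNT and 6.77 RPKM in the double knockdown (log2 fold change -2.94, FDR 7.99e-27), against 8.06 RPKM in the Khsrp knockdown and 48.23 RPKM in the Fubp1 knockdown. Fubp3 did not pass the authors' test, with 68.46 RPKM in siNT and 54.19 RPKM in the double knockdown (log2 fold change -0.22, FDR 0.266).

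The exons that changed most include several of the shortest. The 5 microexons below are shown because their inclusion moved by between 30.8 and 83.7 points, and because they show how little sequence is gained or lost. In each line the exon is in capitals and up to 40 nt of each neighbouring exon of the spliced transcript is in lower case, 5′ to 3′, read from GENCODE vM21.
Senp6, 21 nt, GRCm38 chr9:80098886-80098906, plus strand, exon 6 of 24: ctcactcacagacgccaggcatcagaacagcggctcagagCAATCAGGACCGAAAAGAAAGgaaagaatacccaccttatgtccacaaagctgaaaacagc
Clasp2, 24 nt, GRCm38 chr9:113878750-113878773, plus strand, exon 19 of 33: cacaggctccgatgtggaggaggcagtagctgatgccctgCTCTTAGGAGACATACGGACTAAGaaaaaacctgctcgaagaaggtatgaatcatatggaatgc
Synj1, 24 nt, GRCm38 chr16:90971564-90971587, minus strand, exon 13 of 33: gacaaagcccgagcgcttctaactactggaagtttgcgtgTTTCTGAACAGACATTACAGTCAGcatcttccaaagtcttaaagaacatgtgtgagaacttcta
Asap1, 9 nt, GRCm38 chr15:64153844-64153852, minus strand, exon 12 of 30: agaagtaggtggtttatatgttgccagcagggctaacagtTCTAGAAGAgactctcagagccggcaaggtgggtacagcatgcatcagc
Mtss1, 12 nt, GRCm38 chr15:58964497-58964508, minus strand, exon 7 of 15: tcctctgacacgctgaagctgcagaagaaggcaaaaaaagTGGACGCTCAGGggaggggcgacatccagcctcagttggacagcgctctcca

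The first 4 were skipped in most transcripts of the double knockdown, and the Mtss1 exon was included more. Each of the 5 is a multiple of 3 nt long. The following longer exons are shown because they lie in genes that act in signalling, splicing and transcription, with the exon again in capitals.
Ppp3cb, 30 nt, GRCm38 chr14:20503247-20503276, minus strand, exon 13 of 14: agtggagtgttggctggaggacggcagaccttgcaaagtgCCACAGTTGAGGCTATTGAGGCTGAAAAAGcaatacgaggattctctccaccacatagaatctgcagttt
Ptbp2, 34 nt, GRCm38 chr3:119724612-119724645, minus strand, exon 10 of 14: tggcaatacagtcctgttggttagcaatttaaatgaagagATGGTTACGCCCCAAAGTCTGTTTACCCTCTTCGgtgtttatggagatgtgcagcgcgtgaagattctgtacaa
Zfp207, 48 nt, GRCm38 chr11:80389774-80389821, plus strand, exon 6 of 11: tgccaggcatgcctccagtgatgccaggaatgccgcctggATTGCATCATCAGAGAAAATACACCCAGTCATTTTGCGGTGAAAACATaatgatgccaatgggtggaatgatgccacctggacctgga
Rbm25, 54 nt, GRCm38 chr12:83660308-83660361, plus strand, exon 8 of 19: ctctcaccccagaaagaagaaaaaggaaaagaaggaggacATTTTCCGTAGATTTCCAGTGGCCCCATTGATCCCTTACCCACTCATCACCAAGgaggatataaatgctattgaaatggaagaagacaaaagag
Nrf1, 56 nt, GRCm38 chr6:30140216-30140271, plus strand, exon 11 of 12: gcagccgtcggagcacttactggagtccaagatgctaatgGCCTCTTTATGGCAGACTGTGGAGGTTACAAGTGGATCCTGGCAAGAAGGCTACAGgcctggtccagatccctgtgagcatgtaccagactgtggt

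Of these, the 30 nt exon of Ppp3cb, the 48 nt exon of Zfp207 and the 54 nt exon of Rbm25 are multiples of 3 nt, while the 34 nt exon of Ptbp2 and the 56 nt exon of Nrf1 are not. Percent spliced in (PSI) is the percentage of informative reads in which an exon is present, an intron is unspliced or a splice site is chosen. PSI and corrected reads per library were deposited for each event, and 60137 events in 9317 genes were tested.

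Against siNT, 3561 events (5.92% of those tested) were called in the double knockdown, at an adjusted p under 0.05 over all events in limma with mean PSI at least 10 points apart. PSI was higher in 949 of them and lower in 2612. A difference of 30 points or more was reached by 953 called events, 192 higher and 761 lower. The called events lay in 2008 genes. The authors' own marks, made by a criterion that the sources do not state, cover 3480 of the 3561. They cover 7925 of all 60137 tested events and come from the same series. The median number of informative reads per tested event was 133 and 99 in the double knockdown libraries and 141 to 221 in the siNT libraries. In a principal component analysis of inclusion (as log odds), the first component held 30% of the variance and placed the double knockdown libraries at 279.8 and 287.9 and the other 9, the Rbm38 knockdown included, between -133.7 and 52.7.

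The second principal component, with 11.6% of the variance, followed the number in the library title. SiNT A and B carry the numbers 1 and 3, whereas siNT C carries 27 and the double knockdown libraries carry 8 and 20. Only siNT has libraries on both sides of a split between low numbers and those of 8 or more. A term for that split therefore sets the double knockdown against siNT C alone. With a term for that split, 1716 events were called, 420 higher and 1296 lower, and 1641 of these were also among the 3561. All 3561 called events had the same direction against siNT C alone, with 3337 of them at 10 points or more. SiNT C is itself among the libraries behind the calls. In 3551 of the 3561 the 2 groups did not overlap, so the shared direction was largely fixed beforehand. In 1949 of the 3561 siNT C lay nearer to the double knockdown than the mean of siNT A and B. Leaving out double knockdown A gave 2289 calls, the fewest when any 1 of the 5 libraries was left out. What the number in the title stands for is not given, and its part in the result was not tested beyond these values. Calls lost with the term may be lost through the number or through having 1 control library, which cannot be told apart.

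Cassette exons made up most of the calls. Of 20841 cassette exons longer than 27 nt, 2723 (13.1%) were called, 637 higher and 2086 lower. Their median difference was 19.5 points among those called higher and -22.0 points among those called lower. The median over all tested cassette exons was -0.51 points.

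**Figure D1:**
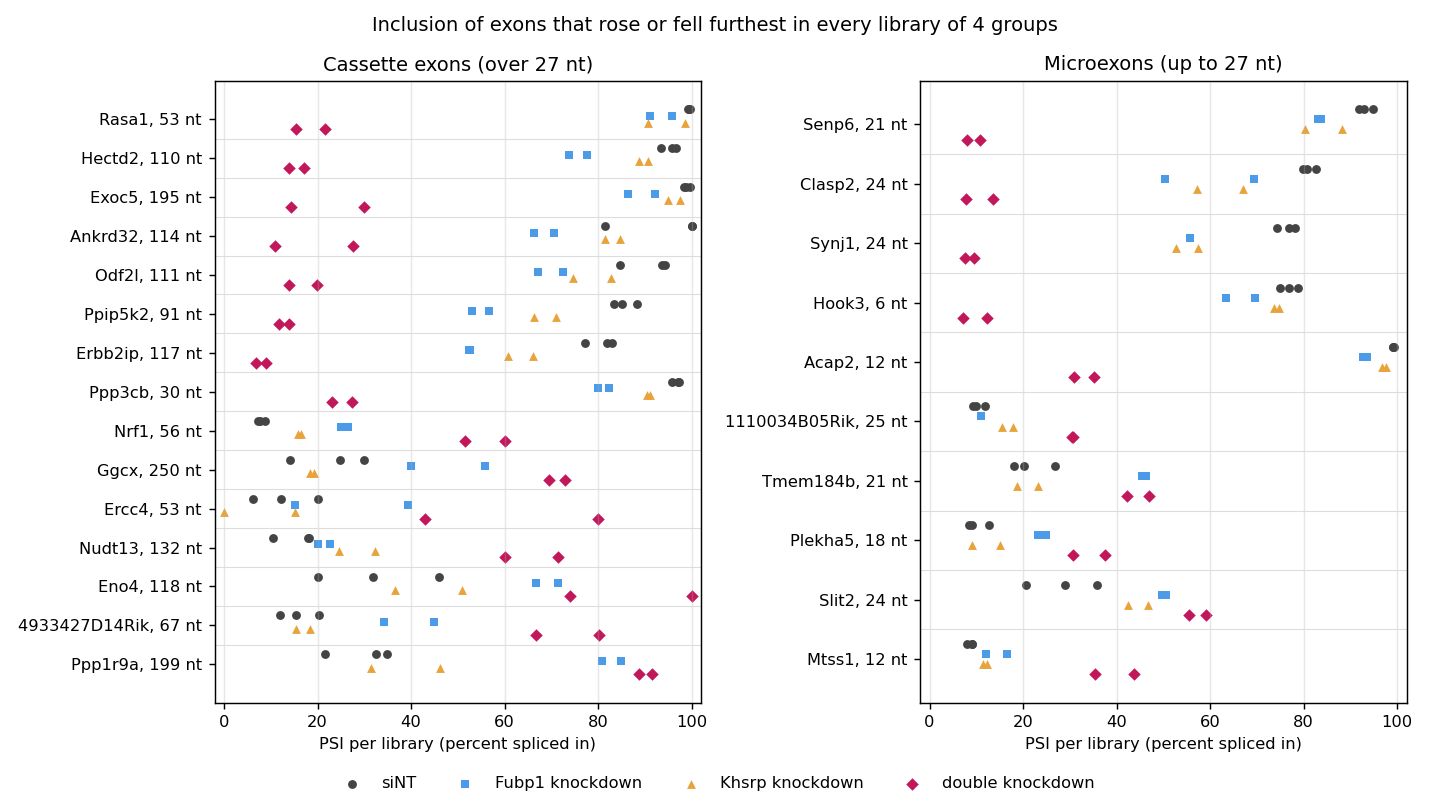
PSI of cassette exons (left) and microexons (right) that rose or fell furthest, in every library of the siNT, Fubp1 knockdown, Khsrp knockdown and double knockdown groups, 1 point per library. For Senp6 the double knockdown libraries lie at 10.8 and 8.1 and the siNT libraries between 91.8 and 94.8, with both single knockdowns above 80.

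The 8 named cassette exons that fell furthest had a PSI of 77.1 or more in every siNT library. Rasa1 encodes a GTPase-activating protein that switches off Ras. Its 53 nt exon had a PSI of 99.2, 99.7 and 99.5 in the siNT libraries (A, B and C in this order throughout) and of 15.3 and 21.6 in double knockdown A and B. The drop of 81 points passed the test (limma adjusted p = 0.000806) but missed it with the term for the title number (adjusted p = 0.0724). In the single knockdowns the exon stayed between 90.7 and 98.5, and the double knockdown differed from each of them directly (adjusted p = 0.000964 against Fubp1 and 0.00107 against Khsrp knockdown).

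Hectd2, a ubiquitin ligase, and Exoc5, a subunit of the exocyst that tethers secretory vesicles, had a similar profile. The 110 nt exon of Hectd2 stood at 93.4, 95.9 and 96.7 in siNT and at 17.2 and 13.9 in the double knockdown (a drop of 79.7 points, limma adjusted p = 0.000126). The 195 nt exon of Exoc5 stood at 98.9, 99.7 and 98.3 in siNT and at 14.4 and 30 in the double knockdown (a drop of 76.8 points, limma adjusted p = 9.04e-05). The next exon of Exoc5, 65 nt long, went from 97.3, 98.6 and 94.7 to 18.8 and 36.8, so neighbouring exons of that gene moved together. Groups without overlap were a condition for naming most of these exons, so the lack of overlap is not a result about them.

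Ppp3cb encodes a catalytic subunit of calcineurin, the phosphatase that responds to calcium. Its 30 nt exon, printed above, had a PSI of 97.4, 95.9 and 97.0 in siNT and of 27.3 and 23.2 in the double knockdown (a drop of 71.5 points, limma adjusted p = 3.74e-07). The Fubp1 knockdown held it at 82.4 and 80.0 and the Khsrp knockdown at 90.5 and 91.1, so the double knockdown was lower than either by 56.0 and 65.5 points (adjusted p = 1.09e-05 and 5.03e-06). Erbb2ip encodes Erbin, a scaffold at the basolateral membrane of epithelial cells and at synapses. Its 117 nt exon fell from 81.9, 82.9 and 77.1 to 6.8 and 9.0, with 52.5 and 52.7 in the Fubp1 and 60.8 and 66.0 in the Khsrp knockdown. Ppip5k2, an inositol pyrophosphate kinase, and Odf2l showed the same order of groups, with drops of 72.9 and 74.1 points. An exon of Ankrd32 (Slf1 in GENCODE), whose product recruits the SMC5/6 complex, fell by 74.6 points, but its siNT libraries were spread from 81.5 to 100.0. The call for Ankrd32 was lost without siNT B (adjusted p = 0.156) and with the title number term (0.0587).

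The exons that rose furthest started from low inclusion. Ppp1r9a encodes neurabin, a neuronal scaffold that brings protein phosphatase to actin. Its 199 nt exon had a PSI of 21.7, 34.9 and 32.6 in siNT and of 91.6 and 88.8 in the double knockdown (a rise of 60.5 points, limma adjusted p = 0.000325). The Fubp1 knockdown had brought it to 80.8 and 85.0, and the direct difference of 7.24 points between the double and that knockdown missed the test (adjusted p = 0.533).

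Nrf1 encodes a transcription factor of nuclear genes for mitochondrial proteins. Its 56 nt exon, printed above, rose from 7.2, 7.6 and 8.8 to 60 and 51.5 (a rise of 47.9 points, limma adjusted p = 3.44e-06), with 26.5 and 25 in the Fubp1 and 16.4 and 15.8 in the Khsrp knockdown. Exons of 4933427D14Rik and of Ggcx, the vitamin K-dependent carboxylase, rose by 57.5 and 48.4 points. Exons of Nudt13, Eno4 and the repair nuclease gene Ercc4 also passed the test, with rises of 50.2, 54.4 and 48.6 points on as few as 21, 27 and 20 reads in a library. Those 3 calls were lost with the title number term (adjusted p = 0.0561, 0.053 and 0.173) and without double knockdown A (0.0621, 0.222 and 0.43). The Ercc4 exon stood at 80.0 in double knockdown A and 42.9 in B, and Eno4 at 74.1 and 100.0. Eno4 also missed the test without double knockdown B (0.0644), siNT B (0.0501) or siNT C (0.0561), and Ercc4 without siNT A (0.0584) or siNT B (0.0555).

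Microexons had the largest called share of any class, 117 of 478 (24.5%), with 12 higher and 105 lower. All 117 carry the authors' mark, which 167 of the 478 tested microexons have. The 117 stand for 116 exons, since a 21 nt exon of Senp6 is listed under 2 event names. With the title number term 69 microexons were called lower.

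Senp6 encodes a protease that removes SUMO chains from proteins. Its 21 nt microexon had a PSI of 91.8, 92.8 and 94.8 in the siNT libraries and of 10.8 and 8.1 in the double knockdown (a drop of 83.7 points, limma adjusted p = 1.96e-06). The second listing of that exon gave 93.3, 94.9 and 94.0 against 16.1 and 7.3. Each single knockdown left it above 80, with 83.0 and 83.7 for Fubp1 and 88.2 and 80.3 for Khsrp, and the double knockdown lay 73.9 and 74.8 points lower than these (adjusted p = 1.86e-05 and 2.86e-05).

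Clasp2, a protein of growing microtubule ends, Synj1, the lipid phosphatase synaptojanin 1 that uncoats endocytic vesicles, and Hook3, an adaptor of the motor dynein, carried microexons with a PSI of 74.4 or more in every siNT library. The 24 nt microexon of Clasp2 fell from 80.7, 82.6 and 79.8 to 7.8 and 13.6 (a drop of 70.4 points, limma adjusted p = 0.000343). The 24 nt microexon of Synj1 fell from 78.2, 76.9 and 74.4 to 9.4 and 7.5 (68.0 points lower, adjusted p = 0.000354). The 6 nt microexon of Hook3 fell from 78.7, 76.8 and 74.9 to 12.3 and 7.2 (67.1 points lower, adjusted p = 1.37e-05). In the single knockdowns these 3 microexons stood between 50.3 and 74.7, and the double knockdown was lower than each single knockdown in all 6 direct comparisons.

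Acap2 and Asap1 encode GTPase-activating proteins of Arf, the small GTPase family of membrane traffic. The 12 nt microexon of Acap2 fell from 99.1, 99 and 99.4 to 35.2 and 30.9, whereas single knockdown libraries ranged from 92.6 to 97.7. The 9 nt microexon of Asap1, printed above, fell from 91.8, 95.2 and 94.1 to 29.9 and 35.1 (limma adjusted p = 5.59e-06). The control and the double knockdown were far apart in both.

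Of the 12 microexons called higher, the 5 named ones had a PSI of 35.8 or less in every siNT library. The 12 nt microexon of Mtss1, which bends membranes through its I-BAR domain, rose from 9.1, 8.0 and 9.0 to 43.7 and 35.3 (30.8 points, limma adjusted p = 5.76e-05). The 21 nt microexon of Tmem184b rose from 26.9, 20.3 and 18.0 to 47.0 and 42.3, a level that the Fubp1 knockdown had too, at 46.2 and 45.4, with a direct difference of -1.12 points (adjusted p = 0.958). The 18 nt microexon of Plekha5 rose by 24 points and a 25 nt microexon of 1110034B05Rik (Tyw5 in GENCODE) by 20.2 points. A 24 nt microexon of Slit2, a secreted guidance cue, went from 29.0, 20.7 and 35.8 to 59.2 and 55.5, but its call was lost with the title number term (adjusted p = 0.129) and without double knockdown A (0.207) or B (0.117).

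The share of exons called was higher for microexons than for longer exons. Over all exons, 26.1% of those of 3 to 15 nt and 23.5% of those of 16 to 27 nt were called, against 11.5% to 13.3% in the 4 longer bins. Among exons with a siNT mean PSI of 20 to 80, the shares were 54.5% at 3 to 15 nt (24 of 44), 45.6% at 16 to 27 nt (36 of 79), 31.5% at 28 to 60 nt, 30% at 61 to 120 nt, 26.6% in the next bin, up to 200 nt, and 20.9% above 200 nt. The direction differed as well. In that range of PSI the microexons were called lower 21 and 34 times and higher 3 and 2 times, with a median difference of -18.2 and -18.8 points over all tested exons of the 2 bins. From 61 nt upward, exons of the same PSI range were called higher 136, 77 and 22 times and lower 142, 81 and 29 times, with medians between 0.83 and 1.87 points.

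**Figure D2:**
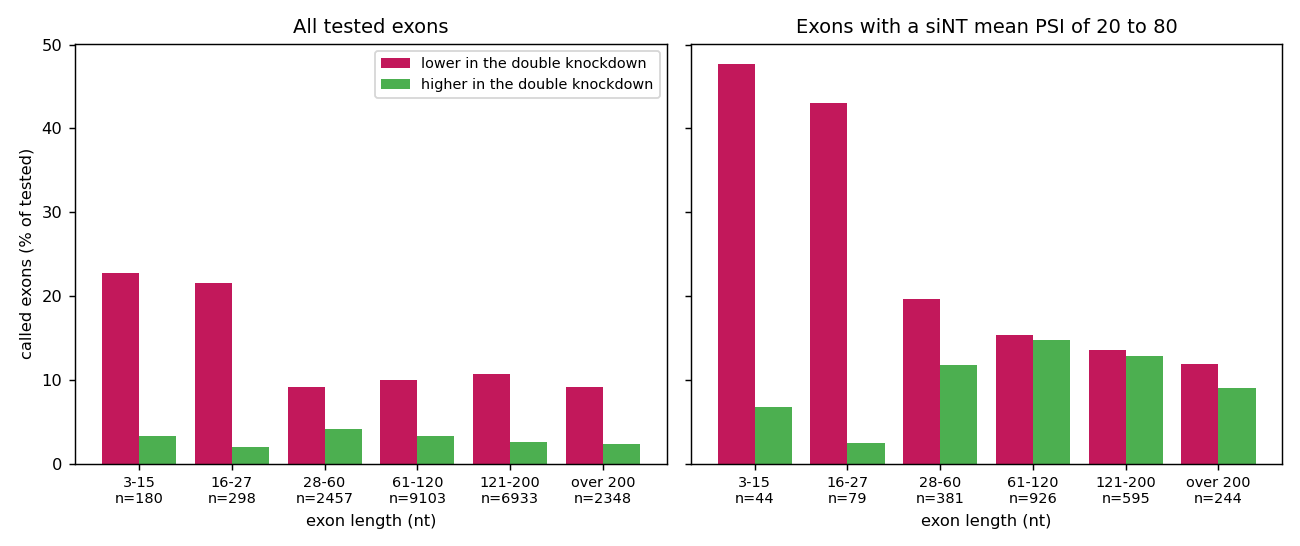
Percentage of tested exons called lower (magenta) or higher (green) in the double knockdown against siNT, by exon length in nt, for all exons (left) and for those with a siNT mean PSI of 20 to 80 (right), with the number tested under each bin. At 3 to 15 nt in the right panel, 47.7% were lower and 6.8% higher, while above 200 nt 11.9% were lower and 9.0% higher.

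Skipping also reached exons that the control includes almost always. Of 11319 exons with a siNT mean PSI of 95 to 100, which can only move down by 10 points, 1243 (11%) were called lower. In GENCODE, where 93.2% of them were matched by exon and intron length, their median GC content was 42.5%, against 49.2% in the 10076 such exons that were not called. Their median upstream and downstream introns were 3454 and 3324 nt long, against 2449 and 2309 nt. Exons with a siNT PSI of 20 to 80 showed both directions. Those called lower had a median GC content of 45.9% and median introns of 3287 and 2994 nt, those called higher 53.1% with 1534 and 2400 nt, and those not called 51.8% with 1937 and 2202 nt. With calls from the fit with the title number term, the median GC content of exons called lower was 43.1%, against 43.0% over all lower calls of the fit without it. These are descriptions of groups of exons, and the bins and features were chosen after the data had been seen.

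Exons whose length is a multiple of 3 were called somewhat more often in the PSI range of 20 to 80, 33.3% (390 of 1172) against 25.3% (277 of 1097). Above a PSI of 80 the shares were 12.5% and 12.0%.

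Many genes had more than 1 called exon, in either direction. Of 1632 genes with a called exon, 1025 had 1, 331 had 2 and 276 had 3 or more. In 509 of the 607 genes with several, all called exons moved in the same direction. Of all 2840 called exons 2191 were lower, so part of this agreement follows from that lean alone. In Alg6, a glucosyltransferase of protein glycosylation, all 11 tested exons were called lower. In Senp6 10 of 11 tested entries were lower, both listings of the microexon included, and in Pcm1, the scaffold of centriolar satellites, 8 of 11. Zfp280d had 11 lower of 23 tested and Zfp451, a SUMO ligase, 9 of 13. Macf1 and Dst, which encode giant linkers of actin and microtubules, went the other way, with 5 of 7 and 6 of 7 called exons higher. These genes were picked after their counts were seen, and neighbouring exons share reads, so their calls are not independent.

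Retained introns were rarely called, 522 of 26596 (1.96%), with 224 higher and 298 lower. Introns longer than 1000 nt were higher 175 times and lower 73 times, while those of up to 200 nt were higher 7 times and lower 106 times. All 152 called introns with a siNT PSI of up to 10 were higher, as they had little room to fall, and 173 of 186 called introns above 30 were lower. Reads at the exon-intron junctions on either side of an intron should be alike if the whole intron is kept. In 325 of the 522 they were not alike in at least 1 of all 11 libraries (deposited p under 0.05), 169 higher and 156 lower. This p was not adjusted for the 11 libraries, which include the other knockdowns, so some introns are counted by chance. Over all tested introns 10039 of 26596 were unbalanced in this sense, and 3.2% of these were called. Balanced introns gave 197 calls (1.2%), 55 higher and 142 lower. The intron counts were also the least steady, with 70 lower calls without double knockdown A, 113 without double knockdown B, and 53 higher and 135 lower calls with the title number term.

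**Figure D3:**
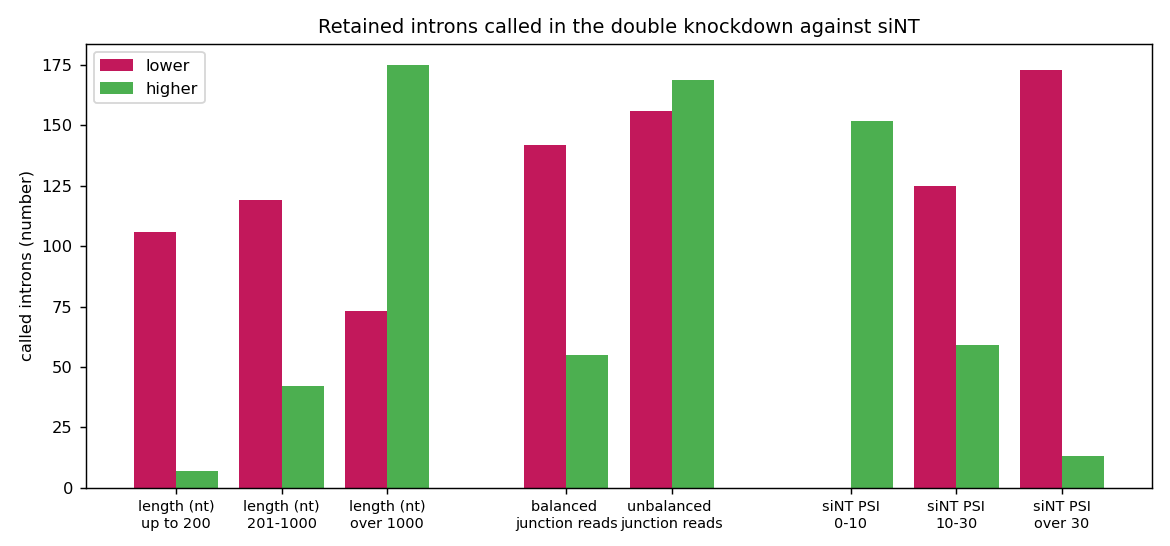
Number of retained introns called lower (magenta) or higher (green) in the double knockdown against siNT. Bars are split by intron length, by whether reads at both exon-intron junctions were balanced in all 11 libraries, and by the siNT mean PSI. Long introns lean to higher retention (175 against 73) and introns of up to 200 nt to lower retention (7 against 106).

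Vps13a, a lipid transfer protein at membrane contacts, had the largest rise of an intron. Reads of its 1647 nt intron gave a PSI of 7.6, 14.7 and 12.2 in siNT and of 62.8 and 84.0 in the double knockdown (61.9 points, limma adjusted p = 0.000728). Introns of Dennd5b (2735 nt), which activates Rab GTPases, and Nfxl1 (1082 nt) rose by 51.0 and 47.5 points, from at most 9.4 and 6.1 in siNT to at least 54.0 and 50.5. Introns of Ttll7, a tubulin polyglutamylase, and Cnot4, a ubiquitin ligase linked to the CCR4-NOT complex, rose by 50.6 and 48.9 points, but both calls were lost with the title number term (adjusted p = 0.192 and 0.142). Junction reads were unbalanced in all 5.

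Of the introns that fell, that of Zwint, a kinetochore protein, was 10510 nt long. It went from 78.6, 78.2 and 70.9 to 18.8 and 8.8 (a drop of 62.1 points, limma adjusted p = 0.000494). A 1960 nt intron of 2610318N02Rik fell by 56.0 points and a 1449 nt intron of 2210403K04Rik by 51.4 points. These long introns fell although long introns leaned to higher retention. A 293 nt intron of Tcta fell by 63.4 points, from 83.8, 80.8 and 73.9 to 21.6 and 10.5, with its call lost under the title number term (adjusted p = 0.0587). A 210 nt intron of the chloride channel gene Clcn2 fell by 50.7 points, and its call was lost without double knockdown A (0.0871) or B (0.0903) and with the title number term (0.0989). Junction reads were unbalanced in these as well, and in the Hnrnpl intron described next. In Hnrnpl, a splicing repressor that binds CA repeats, a 111 nt intron stood at 43.8, 40.6 and 27.9 in siNT and at 6.5 and 6.6 in the double knockdown (a drop of 30.9 points, adjusted p = 0.00169), and it missed the test without double knockdown A (0.054).

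The targeted genes themselves held called introns. In Fubp1 a 1953 nt intron stood at 6.5, 3.3 and 2.7 in siNT, at 35.2 and 27.5 in the double knockdown and at 51.0 and 42.1 in the Fubp1 knockdown, in the transcripts that remained. A 2714 nt intron of Fubp1 went from 2.4, 1.5 and 3.6 to 23.9 and 8.9, a call that was lost without double knockdown A (limma adjusted p = 0.168). In Khsrp a 1047 nt intron stood at 4.4, 2.2 and 9.6 in siNT, at 18.0 and 20.3 in the double and at 45.4 and 43.0 in the Khsrp knockdown, and a 99 nt intron at 3.7, 3.1 and 4.4, then 17.3 and 13.8, and 17 and 13.3. The calls of the 1047 nt and the 99 nt intron were lost without double knockdown A (0.233 and 0.183) and with the title number term (0.401 and 0.116). The 1047 nt intron also missed the test without double knockdown B (0.235), siNT A (0.0877) or siNT B (0.0958). Junction reads were unbalanced for both introns of Fubp1 and for the 99 nt intron of Khsrp, and balanced for the 1047 nt intron of Khsrp. A called exon was found in none of the 5 tested exons of the FUBP genes.

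Alternative splice sites gave 92 calls of 7031 at 3′ splice sites (1.31%; 37 higher, 55 lower) and 107 of 5191 at 5′ splice sites (2.06%; 39 higher, 68 lower). Gdi2 encodes an inhibitor that extracts Rab GTPases from membranes. Use of 1 of its 3′ splice sites went from 5.6, 8.1 and 6.8 in siNT to 78.1 and 76.2 in the double knockdown (a rise of 70.3 points, limma adjusted p = 7e-07), with 31.4 and 32.5 in the Fubp1 and 7.1 and 9.7 in the Khsrp knockdown. Cask, a synaptic scaffold, used a 3′ site at 21.7, 29.4 and 37.7 in siNT and at 91.8 and 84.1 in the double knockdown. Pdlim5, a scaffold of actin fibres, used a 3′ site at 82.3, 86.1 and 80.7 and then at 35.9 and 40.3. A 5′ site of Cenpk, a kinetochore subunit, went from 12.1, 7.7 and 8.8 to 54.4 and 55.8 (a rise of 45.6 points, adjusted p = 1.67e-05). Groups without overlap were a condition for choosing these sites.

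Several other named sites passed the test with less support. 3′ sites of Synj1, Fam48a and Mapt changed by 61.3, -48.0 and -43.1 points, and 5′ sites of Taf9, Fbxo6, Scn9a and Csnk2a1 by 55.4, 21, -37.5 and -29.3 points. With the title number term their adjusted p ran from 0.0506 to 0.143, so none of the 7 was called. Of these, the calls for Mapt (0.107), Scn9a (0.21), Fbxo6 (0.0719) and Synj1 (0.0572) were also lost without double knockdown A, and that for Synj1 without double knockdown B (0.057). The 5′ site of Dennd2a, -41.2 points, was lost without double knockdown A (0.0805) or B (0.1).

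The double knockdown also differed from each single knockdown when set against it directly. Against the Fubp1 knockdown 1896 events (3.15%) were called, 484 higher and 1412 lower, and against the Khsrp knockdown 2105 events (3.5%), 479 higher and 1626 lower. Cassette exons made up 1582 and 1782 of these calls (7.59% and 8.55% of those tested) and microexons 78 and 69 (16.3% and 14.4%). Of the 8 named cassette exons that fell furthest, 7 were called against each single knockdown, and of the 5 named microexons that fell, all 5. Of the 8 that rose furthest, 4 were called against the Fubp1 and 6 against the Khsrp knockdown. These named exons were chosen for extreme values in the same double knockdown libraries, so high counts follow in part from the choice. The contrast with the Fubp1 knockdown is confounded with the number in the library title, since both Fubp1 libraries carry low numbers, and with the term for it 139 events were called. That term is estimated from the siNT libraries alone. Without weights for read number, 709 events were called against the Fubp1 knockdown. Leaving out 1 library moved the number of calls to between 830 and 1304 against the Fubp1 knockdown and between 681 and 1511 against the Khsrp knockdown.

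Factors that bind or process RNA were among the spliced genes. Ptbp2, a repressor of neuronal exons, carried a 34 nt exon whose skipping is known to expose its mRNA to nonsense-mediated decay. That exon, printed above, went from 87.1, 90.5 and 83.3 in siNT to 26.5 and 18.2 in the double knockdown (a drop of 64.6 points, limma adjusted p = 8.28e-05), and an upstream exon of 173 nt from 98.8, 99.8 and 99.4 to 46.6 and 45.0. In the authors' deposited table Ptbp2 stood at 104.17 RPKM in siNT and 43.29 RPKM in the double knockdown (log2 fold change -1.34, FDR 1.37e-21). The Fubp1 knockdown had Ptbp2 at 73.66 RPKM, with the 34 nt exon at 71.1 and 76.6. The Khsrp knockdown had it at 52.82 RPKM, with that exon at 70.1 and 83.2. Whether skipping lowers this mRNA was not tested. Rbm25, a splicing factor of the U1 snRNP, included its 54 nt exon at 92.1, 92.6 and 92.2 in siNT and at 49.8 and 46.6 in the double knockdown. The 48 nt exon of Zfp207, a zinc finger protein with isoforms that differ between stem and differentiated cells, fell from 92.2, 88.1 and 92.0 to 45.0 and 38.6. A 73 nt exon of Hnrnpa2b1 rose from 43.4, 47.3 and 32.4 to 68.2 and 70.6, and the 51 nt exon of Puf60, a poly(U) binding factor at 3′ splice sites, from 38.5, 36.2 and 37.5 to 59.0 and 54.8.

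Over gene lists, 17 of 76 tested exons of neuronal splicing regulators (22.4%) and 18 of 112 exons of SR, hnRNP and core spliceosome genes (16.1%) were called, against 13.3% of all tested exons, microexons included. Cnot2, a subunit of the deadenylase complex CCR4-NOT, had 2 exons that fell, of 148 nt from 95, 92.4 and 90.3 to 27.4 and 21.8 and of 80 nt from 92.3, 87.9 and 84.7 to 32.3 and 23.8. In the list of mRNA decay factors 29 of 123 exons (23.6%) were called, 3 higher and 26 lower. Dicer1, which cuts microRNA hairpins, lost inclusion of 2 exons, of 98 nt from 84.4, 87.9 and 92.8 to 43.7 and 48.7 and of 66 nt from 92.0, 94.3 and 96.7 to 52.4 and 55.0. In the list of microRNA processing and let-7 genes 9 of 65 exons (13.8%) were called, near the share of all exons. A 49 nt exon of Lin28b in that list fell from 83.2, 83.7 and 84.6 to 40.3 and 65.2, and its call was lost without double knockdown A (limma adjusted p = 0.461) and with the title number term (0.0835).

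Genes of membrane traffic, actin regulation and microtubules are set beside the same 13.3% of all tested exons, with no test of the difference. The list of endosome and vesicle traffic had 83 of 312 tested exons called (26.6%), 13 higher and 70 lower, in 40 of 64 genes with a tested event. Actin and GTPase regulators had 62 of 231 (26.8%), 21 higher and 41 lower, and microtubule motors and centrosome genes 50 of 221 (22.6%), 10 higher and 40 lower. In Pcm1 exons of 132 and 173 nt fell from 93.7, 95.4 and 95.9 to 42.3 and 35.3 and from 90.8, 92.5 and 94.7 to 46.0 and 40.2. Ubiquitin and proteasome genes had 20 of 56 exons called (35.7%), all 20 lower, but these lay in 6 genes, and 10 of them in Senp6, whose microexon is counted under both of its listings. Senp7, a related SUMO protease, had a 198 nt exon that fell from 82.8, 83.4 and 92.2 to 32.6 and 21.2.

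Among cell cycle genes, 20 of 99 exons of the G2 and mitosis list (20.2%) and 11 of 71 of the S phase list (15.5%) were called, against 13.3% of all tested exons. Pola1, the catalytic subunit of DNA polymerase alpha, lost inclusion of neighbouring exons of 120, 130 and 176 nt, from between 96.2 and 99.7 in siNT to between 57.6 and 63.9. Exons of 73, 95 and 115 nt of Ttk, a kinase of the spindle checkpoint, went from between 98.9 and 100.0 to between 50 and 66.1. Their calls were lost with the title number term (limma adjusted p = 0.306, 0.404 and 0.266) and without siNT C (0.0618, 0.0913 and 0.0692). The chromatin and transcription list had 43 of 307 exons called (14.0%), near that share, among them a 244 nt exon of Chd9, a chromatin remodeller, from 96.6, 98.0 and 98.4 to 54.7 and 37.4.

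In the matrix and adhesion list 2 of 35 exons were called (5.7%), below the 13.3% of all tested exons, in Itga6 and Fn1. Itga6 encodes the laminin receptor subunit alpha 6, whose cytoplasmic tail depends on the use of a 130 nt exon. That exon went from 67.5, 64.7 and 73.6 in siNT to 13.2 and 12.2 in the double knockdown (a drop of 55.9 points, limma adjusted p = 6.75e-05), with 36.4 and 35.1 in the Fubp1 and 43.0 and 42.9 in the Khsrp knockdown. A 270 nt exon of Fn1, which encodes fibronectin, fell from 91.1, 91.7 and 90.6 to 67.2 and 68.0. From other lists, a 132 nt exon of Vegfa rose from 58.1, 60.7 and 60 to 82.2 and 80.2, and a 76 nt exon of Tpm1, tropomyosin 1, from 47.3, 43.2 and 41.9 to 76.6 and 76.6. Every single knockdown library lay between siNT and the double knockdown for the exons of Itga6, Vegfa and Tpm1. For Fn1 the Fubp1 knockdown stood at 87.3 and 89.8, and the Khsrp knockdown, at 90.0 and 90.7, overlapped siNT. In the interferon-stimulated list 0 of 29 exons were called.

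Expression changed in both directions in the authors' deposited table. Of 23378 tested genes, 3080 were higher (13.2%) and 3192 were lower (13.7%) where calls needed an FDR below 0.05, with 1427 and 1213 past a 2-fold change. The median log2 fold change over all tested genes was 0.001. The 13.2% and 13.7% cover all tested genes, weakly expressed ones included. Among genes with tested exons, 22.1% were lower where no exon was called and 43.7% where an exon was. In these bulk RNA values, a change in RNA per cell and a change in the make-up of the cells cannot be told apart. Of the 8 genes chosen as markers of neuroblastoma cells, 5 were lower and none higher, and all 8 had RPKM above 0 in both groups. Markers of other cell types summed to 7.68 RPKM in siNT and 10.04 RPKM in the double knockdown over 16 genes, against 1088.71 and 934.38 RPKM for the 8 neuroblastoma markers. Of the 16, 4 were higher and 2 lower, and Col3a1, Krt18 and Krt5 were listed at 0 in both groups.

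Genes with an exon called lower more often had lower expression. Of 1065 such genes, 540 (50.7%) were lower in expression and 92 (8.6%) higher, with a median log2 fold change of -0.38. Of 4788 genes with tested exons but none called, 22.1% were lower and 20.2% higher, with a median of -0.02. Among the named genes, Exoc5 stood at 43.2 RPKM in siNT and 11.72 RPKM in the double knockdown (log2 fold change -2.03, FDR 2.44e-48), and Pcm1 at 221.45 and 53.24 RPKM (log2 fold change -1.94, FDR 1.55e-24). The share was 50.8% with exon calls from the fit with the title number term. Whether skipping lowers these mRNAs was not tested.

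**Figure D4:**
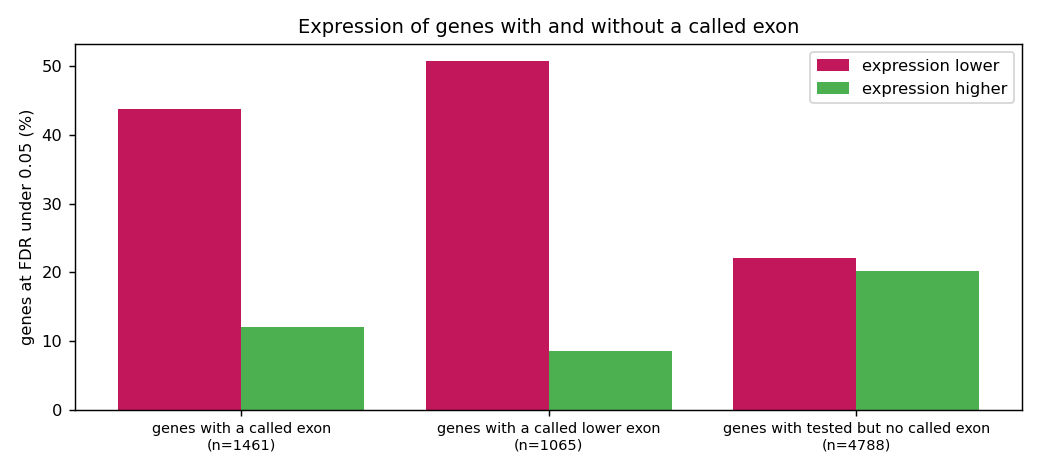
Percentage of genes lower (magenta) or higher (green) in expression at the authors' FDR under 0.05, for genes with a called exon, genes with an exon called lower, and genes with tested but no called exons, with the number of genes under each. Lower expression reached 50.7% of genes with an exon called lower and 22.1% of genes without a called exon.

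Contractile genes of the smooth muscle type were higher in 23 of 39 tested members and lower in 0, against 13.2% higher over all tested genes, with a list median log2 fold change of 0.88. Myl9, a regulatory light chain of myosin, went from 4.71 to 139.12 RPKM (log2 fold change 4.76, FDR 8.72e-177), above the 42.29 RPKM of the Fubp1 and the 54.91 RPKM of the Khsrp knockdown. Acta2, smooth muscle actin, mentioned after its value was seen, went from 3.89 to 60.93 RPKM (log2 fold change 4.01, FDR 6.52e-93). Myl7 and Myh11 rose from low levels, from 0.03 to 3.53 RPKM and from 0.02 to 1.03 RPKM. Srf, the factor that drives many of these genes, rose from 14.27 to 27.52 RPKM (log2 fold change 0.93). The fibroblast markers Pdgfra (1.12 to 2.23 RPKM) and Col1a1 (0.02 to 0.30 RPKM) rose too, Dcn fell (0.32 to 0.06 RPKM), and the 4 fibroblast markers summed to 1.46 RPKM in siNT and 2.59 RPKM in the double knockdown. Their part in the result was not tested.

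Interferon-stimulated and antigen presentation genes were higher in 30 of 48 tested members and lower in 3, with a list median of 1.05. Over all tested genes 13.2% were higher and 13.7% lower. Ifitm3, which blocks viral entry, rose from 4.5 to 96.68 RPKM (log2 fold change 4.47, FDR 8.61e-19), with 20.08 RPKM in the Fubp1 and 10.64 RPKM in the Khsrp knockdown. Igtp, an interferon-induced GTPase, rose from 0.22 to 1.91 RPKM and Xaf1 from 0.23 to 1.66 RPKM. Psmb8, a subunit of the immunoproteasome mentioned after its value was seen, rose from 4.97 to 19.69 RPKM (log2 fold change 1.90). Mx2, Usp18 and Tmem173 were the 3 that fell, with log2 fold changes of -2.21, -1.39 and -1.12. The myeloid markers summed to 0.79 RPKM in siNT and 1.9 RPKM in the double knockdown, with Cd68 higher and Csf1r listed at 0 in the double knockdown. Their part in the result was not tested.

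**Figure D5:**
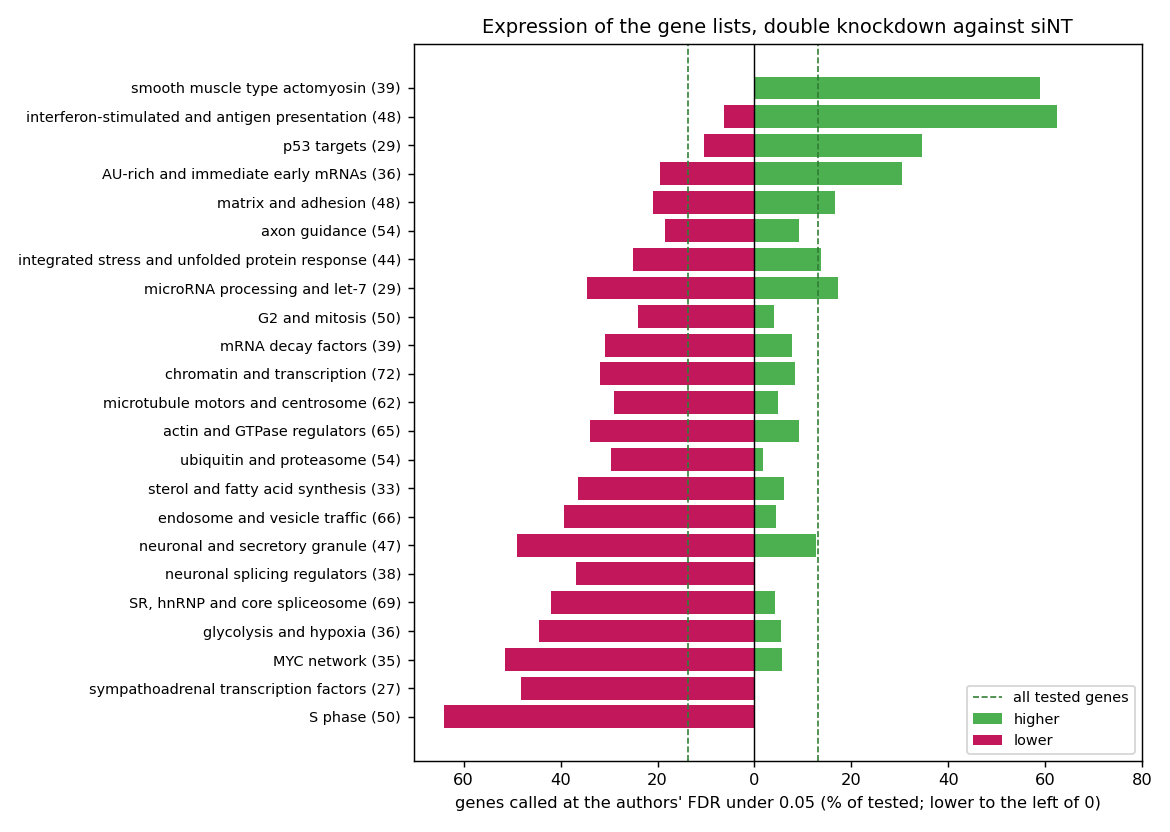
Percentage of tested genes of each list that were higher (green, to the right) or lower (magenta, to the left) in the double knockdown at the authors' FDR under 0.05, with the number tested in parentheses. Dashed lines mark the shares over all tested genes, 13.2% higher and 13.7% lower.

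Of 50 genes of the S phase list, which holds genes of DNA replication, 32 were lower and none higher, against 13.7% lower over all tested genes, with a list median of -0.55. Hells, a chromatin remodeller of dividing cells, went from 116.07 to 22.41 RPKM (log2 fold change -2.53, FDR 7.75e-51). Tyms, which makes thymidylate, and Cdc6, which loads the replicative helicase, went from 97.39 to 33.82 RPKM and from 23.55 to 9.27 RPKM. Pcna, the replicative clamp, mentioned after its value was seen, went from 355.17 to 195.88 RPKM (log2 fold change -0.71). Of 50 G2 and mitosis genes 12 were lower and 2 higher, among them Bub1 (69.18 to 26.07 RPKM) and Ttk (30.48 to 9.92 RPKM). That share of lower genes is near the 22.1% of genes with tested exons but none called. Of the p53 targets 10 of 29 were higher and 3 lower, against 13.2% and 13.7% over all tested genes. Among them Trp53inp1 went from 0.43 to 3.16 RPKM.

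The MYC network list, of the MYC genes with partners, regulators and targets, was lower in 18 of 35 members and higher in 2. Over all tested genes 13.7% were lower and 13.2% higher. Myc itself did not pass the authors' test, with 84.7 RPKM in siNT and 64.36 RPKM in the double knockdown (log2 fold change -0.48, FDR 0.0806). Mycn, the paralog that drives many neuroblastomas, fell from 13.11 to 5.77 RPKM (log2 fold change -1.21, FDR 4.74e-05). Nolc1, a nucleolar chaperone, fell from 104.36 to 58.75 RPKM. Mxd4, which opposes MYC at its target genes, rose from 3.44 to 18.08 RPKM (log2 fold change 2.33, FDR 5.61e-76), and the Fubp1 knockdown alone had it at 17.73 RPKM. Of 36 glycolysis and hypoxia genes 16 were lower and 2 higher, with the lactate transporter Slc16a3 falling from 335.95 to 89.11 RPKM.

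AU-rich and immediate early mRNAs, the class that KHSRP is known to destabilise, went both ways, 11 of 36 higher and 7 lower, with a list median of 0.02. Egr1 fell from 10.99 to 1.02 RPKM (log2 fold change -3.27, FDR 2.72e-19), and the Fubp1 and Khsrp knockdowns had it at 2.32 and 2.99 RPKM. Btg2 and Atf3 rose from 0.99 to 3.57 RPKM and from 5.06 to 14.98 RPKM. Decay factors were lower in 12 of 39 and higher in 3, with Cnot6 falling from 149.35 to 54.87 RPKM. For both lists, the shares over all tested genes were 13.2% higher and 13.7% lower. Drosha, which makes the first cut in microRNA processing, fell from 44.99 to 17.22 RPKM (log2 fold change -1.52, FDR 7.92e-14), whereas Dicer1 did not pass the authors' test (53.12 to 48.14 RPKM, FDR 0.206).

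Identity genes of the neuroblastoma line fell in part. Of the sympathoadrenal transcription factors 13 of 27 were lower and none higher, against 13.7% lower over all tested genes. The lower ones include Myt1 (40.79 to 10.0 RPKM) and St18 (21.19 to 6.16 RPKM). Of 47 neuronal and secretory granule genes 23 were lower and 6 higher. Dbh, which makes noradrenaline, fell from 18.8 to 2.75 RPKM (log2 fold change -2.95, FDR 8.1e-41), with 5.91 RPKM in the Fubp1 and 27.39 RPKM in the Khsrp knockdown. Stmn4 rose from 22.76 to 104.07 RPKM. The general neuronal genes Stmn2 and Tubb3 did not pass the test, at 236.65 and 223.58 RPKM and at 385.96 and 425.36 RPKM.

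Regulators of splicing fell more often than they rose. Of 38 tested neuronal splicing regulators 14 were lower and none was higher, against 13.7% lower over all tested genes. Rbfox1, which activates or represses exons from its site in the flanking intron, fell from 4.54 to 0.59 RPKM (log2 fold change -3.02, FDR 2.50e-28), and Celf4 from 12.76 to 2.39 RPKM. Srrm4, the main activator of neuronal microexons, mentioned after its value was seen, went from 10.96 to 7.58 RPKM (log2 fold change -0.56, FDR 0.0436). Of 69 SR, hnRNP and core spliceosome genes 29 were lower and 3 higher, with Hnrnph1 falling from 621.94 to 282.51 RPKM. Of 66 endosome and vesicle traffic genes 26 were lower and 3 higher.

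Several single genes changed by a large factor. Dzip3, a ubiquitin ligase that binds RNA, fell from 60.65 to 3.75 RPKM (log2 fold change -3.82, FDR 6.27e-94), and the single knockdowns had it at 17.93 and 33.92 RPKM. Ccdc18 fell from 5.37 to 0.27 RPKM and Gpr22, an orphan receptor, from 9.25 to 0.89 RPKM. Timp3, an inhibitor of matrix proteases, rose from 1.62 to 21.2 RPKM (log2 fold change 4.16, FDR 1.44e-96). Ubb, which encodes a ubiquitin precursor, fell from 960.44 to 216.28 RPKM, and the Khsrp knockdown had it at 157.54 RPKM. Small RNA genes such as Snord118 and Mir3096 were also among the genes with the lowest log2 fold changes. They were listed at 0 RPKM in the double knockdown, so no fold is given.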

How the data were processed

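Stranded libraries of polyadenylated RNA with long inserts were made by the submitters, per the labels' protocols. The authors deposited PSI as percent per library in a vast-tools style table (no version stated), with corrected inclusion and exclusion reads in a quality text. Another table, as deposited, holds the authors' own score of inclusion for each group, not used for values here, and marks each event as changed or not. They also deposited 1 RPKM value per group and, for each knockdown against siNT, a log2 fold change, a p-value and an FDR. The submitters' processing notes name Salmon 0.14.1, edgeR and mm10. The authors' log2 fold change is not the plain ratio of their RPKM values.

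Events with at least 10 reads in every library and a deposited mean PSI of 1 to 99 were tested, 60137 of 401633 listed entries. Each alternative splice site is an entry of its own, and the 37194 first sites of a group were left out. PSI recomputed from the reads matched the deposited percent to within 0.05 points. Log2 odds of inclusion (0.5 added to each read number) were fitted in limma 3.58.1 (R 4.3.3) with 1 mean per group over all 11 libraries, empirical Bayes with a trend, and weights from the binomial variance. The fit was checked on simulated reads. Reads carry no molecular identifiers, so their number covers counting error only. No fit of expression was possible with 1 value per group, and the authors' calls at an FDR under 0.05 were used.

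Alternative sites were matched to the authors' marks by site group. Event coordinates do not follow GRCm38, their build is not named in the sources, and exons were matched to GENCODE vM21 by exon and flanking intron length, 17593 of 21319, of which 14776 by both introns. The match by 1 intron was added after the data were seen. No intron sequence was used.

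The comparison, the gene lists, the weights and the tests were chosen with earlier results of these data known. Named events were the 8 cassette exons, 5 microexons, 5 introns and 3 sites of each kind that rose or fell most among called events with at least 20 reads in each of the 5 libraries and no overlap, 1 per gene, all called events of the FUBP genes, and up to 3 per list. Named genes were the 10 highest and 10 lowest log2 fold changes with at least 5 RPKM in the higher group, the FUBP genes and up to 4 per list. The text gives a selection of these, and some named items are not reported here. Replicate letters were not used as pairs. Alternatives were other weights, filters, pseudocounts, thresholds, samples and terms, and leaving out each library.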

Additional observations from a re-analysis of the deposited data

How the results depend on the processing

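Direction was read from the difference of mean PSI, which weights, filters, pseudocounts and terms leave unchanged. It could differ only with a library left out, and there all 105 named events kept it, most having been chosen for groups without overlap. At 20 or more reads 99 of them were tested, and 103 at a mean PSI of 5 to 95. With 1 siNT library left out 95 to 100 stayed called, and fewer with 1 double knockdown library left out. The title number term leaves siNT C as the only control of the double knockdown. With the title number term 71 stayed called. The 3561 calls moved by over 1.5 times with that term, to 1716 (420 higher, 1296 lower), with cassette exons at 331 higher and 1053 lower, microexons at 69 lower, introns at 53 higher and 135 lower, and splice sites at 66. Leaving out 1 library gave 2289 to 3424 calls in all, 542 to 929 higher and 1747 to 2495 lower. By class it gave 366 to 615 cassette exons higher, 116 to 219 introns higher, 70 to 349 introns lower and 89 to 207 splice sites. Lower introns numbered 462 without read weights and 186 with only the 2 groups fitted, which left 131 splice sites. At 15 points, 618 events were higher, among them 7 microexons and 142 introns, and 116 splice sites were called. Introns with balanced junction reads, an alternative chosen after seeing the data, gave 55 higher and 142 lower. Host expression shares and exon features under the title number term were also added after seeing the data.

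Against the Fubp1 knockdown, 709 events were called without read weights, 1093 with only the 2 groups, 139 with the title number term and 830 to 1304 with 1 library left out. Against the Khsrp knockdown, 1186 were called with only the 2 groups and 681 to 1511 with 1 library left out. A fit with only 2 groups has fewer libraries to estimate the spread. Where a knockdown group was left with 1 library, it was assumed to vary like the other groups. In expression, 2640 genes passed a 2-fold change, 1427 higher and 1213 lower. With the ratio of RPKM values, 25 of 130 named genes moved by 0.5 or more on the log2 scale with 0.1 added and 57 with 1 added, and none past the FDR changed direction.

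The replicate letters gave little sign that the double knockdown libraries pair with those of other groups. A minus B differences of the double knockdown correlated with those of siNT, the Fubp1 and the Khsrp knockdown by 0.058, 0.033 and 0.054 across 60137 events. Counting error in single events lowers such correlations, so they cannot exclude pairing. With the replicate block 3497 events were called against siNT, 2107 against the Fubp1 and 2384 against the Khsrp knockdown. An unadjusted p under 0.05 was reached by 13402 events.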

Other observations

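In the authors' deposited table the remaining gene lists held both higher and lower genes. Over all tested genes 13.2% were higher and 13.7% lower, and 22.1% were lower among genes with tested exons but none called. Of 44 genes of the stress and unfolded protein responses 6 were higher and 11 lower. Cbs and Cth, which make cysteine from homocysteine, fell from 8.84 to 1.35 RPKM and from 40.72 to 8.56 RPKM, both to the level of the Fubp1 knockdown (1.3 and 8.85 RPKM), and the stress gene Nupr1 rose from 86.34 to 245.02 RPKM. In Cth a 132 nt exon also went from 99, 99.8 and 99.2 PSI in siNT to 72.3 and 61.2 in the double knockdown (limma adjusted p = 0.000118). Of 33 sterol and fatty acid synthesis genes 2 were higher and 12 lower. Of 48 matrix and adhesion genes 8 were higher and 10 lower, among them the laminin chain gene Lamb2 (1.07 to 8.64 RPKM) and the collagen receptor gene Itga1 (9.58 to 2.66 RPKM). Of 54 axon guidance genes 5 were higher and 10 lower, with Slit2 falling from 33.96 to 13.28 RPKM while the Fubp1 knockdown had it at 45.71 RPKM.

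Of 65 actin and GTPase regulators 6 were higher and 22 lower, against the same 13.2% and 13.7% of all tested genes. Sptan1, the spectrin alpha chain of non-erythroid cells, fell from 106.13 to 30.97 RPKM, and the Khsrp knockdown had it at 30.36 RPKM and the Fubp1 knockdown at 118.62 RPKM. Of 62 microtubule motor and centrosome genes 3 were higher and 18 lower, of 72 chromatin and transcription genes 6 and 23, of 54 ubiquitin and proteasome genes 1 and 16, and of 29 microRNA processing and let-7 genes 5 and 10. Ctnnd1, the catenin p120 of the chromatin and transcription list, rose from 41.39 to 106.92 RPKM, and the Fubp1 knockdown had it at 95.04 RPKM. Against 13.3% of all tested exons, called exons in the remaining lists numbered 9 of 44 neuronal and secretory granule exons (20.5%), 7 of 34 of sterol synthesis (20.6%), 8 of 61 of axon guidance, 5 of 41 of smooth muscle type actomyosin, 3 of 40 of sympathoadrenal factors, 2 of 51 of the MYC network, 2 of 31 of glycolysis, 2 of 26 of p53 targets, 1 of 35 of the stress response and 1 of 5 of AU-rich mRNAs.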
